A study of Homo sapiens with 16 samples.

Results

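The levels of 48 genes that carry secretory proteins into and out of the endoplasmic reticulum (ER) were described in human myeloma cells by RNA sequencing. They were taken by gene symbol from a table of 23459 genes, and all 48 were found in it. They fell into 6 groups by role: 8 genes of the signal recognition particle (SRP) and its receptor, 10 of the SEC61 translocon and the translocon-associated protein (TRAP) complex, 5 of signal peptidase, 7 of the oligosaccharyltransferase (OST), 11 of the COPII coat, and 7 cargo and retrieval receptors.

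A secretory protein is recognised by SRP while it is still being made, and its ribosome is brought to the SEC61 pore in the ER membrane. Signal peptidase removes the signal peptide, and OST transfers a preassembled sugar chain to asparagine residues. COPII vesicles then take folded cargo to the Golgi, and KDEL receptors return escaped ER residents. Plasma cells make and secrete antibody in bulk and depend on this route, and myeloma is a cancer of plasma cells.

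The study used 3 established human myeloma lines (MM.1s, RPMI8226 and KMS18) without overexpression, and RPMI8226 cells made to overexpress Mcl1, a protein that protects from apoptosis. Each of the 4 backgrounds received the empty vector (pLK0.1, called Vec) or a short hairpin RNA (shRNA) against CD28, a costimulatory receptor, against CD86, one of its ligands, or against Gapdh, a glycolytic enzyme, as a control. There was 1 library for each of the 16 combinations, so the lines served as replicates of a shRNA. All groups carry the vector or a hairpin, and cells that received neither were not analysed here. The Mcl1 cells are a single derived line, and the labels state neither hairpin sequences nor the time after transfection.

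Reads in genes numbered 3914513 to 5900955 per library, with the fewest of each background under CD28 shRNA. Both mates of a fragment appear to have been counted, since 15900 values equalled 2 reads and 3882 equalled 1, so fragments are fewer than these reads. The library labels were checked on the targeted genes. Under its own shRNA CD28 stood at 65.1% to 79.3% of its Vec level over the 4 backgrounds, and CD86 at 44.1% to 76.2%. GAPDH stood at 10.7% to 53.0% under Gapdh shRNA. In limma CD28 passed under its shRNA (-0.47, adjusted p = 0.0295), but CD86, a gene of low level, did not under its own (-0.62, adjusted p = 0.315). CD86 was above Vec with CD28 shRNA in all 4 backgrounds (0.71, adjusted p = 0.142), and lower with CD86 than with CD28 shRNA (-1.33, adjusted p = 0.00943). All 9 plasma cell markers averaged over 1 FPKM (the unit fragments per kilobase of exon, scaled to library size), with library sums of 1348 to 3794 FPKM, against 1 of 5 T cell markers (sums of 0.314 to 7.56), 0 of 5 myeloid markers (0 to 3.54) and 0 of 6 stromal markers (0.0597 to 0.841). The marker sums spanned 1348 to 3424 FPKM with CD86 shRNA and 1519 to 3469 with Vec. Of the 9 plasma cell markers 3 (SDC1, TNFRSF17 and MZB1) were lowest with CD86 shRNA in every background. In bulk RNA, fewer cells of a type and less RNA per cell cannot be told apart.

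The genes of translocation and glycosylation were among the more abundant transcripts of these cells, and the COPII coat was much less so. FPKM is scaled by the exon length listed for each gene. That length may exceed the transcripts expressed, so levels and shares of different genes can be set side by side only roughly. The median over the 48 genes of the mean level in the 16 libraries was 59.9 FPKM, against 9.41 FPKM over the 11349 genes whose mean reached 1 FPKM, and 42 of the 48 were above that second median. OST subunits had a median of 127 FPKM (97.6 to 213), the translocon and TRAP 112 FPKM (2.24 to 325), signal peptidase 99.5 FPKM (56.3 to 338), SRP and its receptor 57.3 FPKM (25.3 to 133), and cargo and retrieval receptors 54.3 FPKM (2.17 to 125). The 11 COPII genes had a median of 18.3 FPKM (5.85 to 35.0). The highest mean levels were those of SPCS1, a small subunit of signal peptidase (338 FPKM), and of SEC61G and SEC61B, the small subunits of the pore (325 and 310 FPKM). KDELR3 (2.17 FPKM) and SEC61A2, a second gene for the pore subunit (2.24 FPKM), were the lowest, and SEC61A1 made up 98.1%, 98.4%, 99.2% and 98.1% of the pore subunit's FPKM in MM.1s, RPMI8226, KMS18 and the Mcl1 line.

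The unfolded protein response raises many genes of this route through the transcription factors XBP1 and ATF6, so RefSeq promoter windows (250 bases before to 50 bases after each start, GRCh38.p14) were searched for the letters these factors are known to bind. Of the 48 genes, 42 had a window. The core of the unfolded protein response element, TGACGTGG on either strand, was in a window of 8 of the 42 genes (19.0%). It was in 0.927% of all 27305 genes with a window, whether expressed in these cells or not, so the sets are unlike. The 8 members were SRP19, SEC62, SSR3, SSR4, SEC16A, SEC23A, SEC24A and KDELR3. The ER stress response element ERSE (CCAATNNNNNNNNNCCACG) shares the letters CCACG with the opposite strand of that core. It was in no window of the 42 genes on either strand, against 0.0916% of genes, and at that share none is expected among 42. A match is a description of letters and not a bound site. The 3 windows below are shown because SSR3 fell under CD86 shRNA and SSR4 and KDELR3 differed widely between lines. Each reads 5′ to 3′ on the strand of its gene, and capitals mark the opposite strand of the core.
SSR3: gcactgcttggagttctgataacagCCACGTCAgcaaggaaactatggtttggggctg
SSR4: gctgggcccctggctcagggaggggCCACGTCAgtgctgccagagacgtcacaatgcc
KDELR3: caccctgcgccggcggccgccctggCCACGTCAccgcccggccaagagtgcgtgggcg
The SSR3 stretch is chr3:156554134-156554191 on the minus strand, with the match 41 to 34 bases before the start. The SSR4 stretch is chrX:153794514-153794571 on the plus strand (129 to 122 bases before the start), and the KDELR3 stretch is chr22:38468025-38468082 on the plus strand (46 to 39 bases before the start).

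CD86 shRNA was first compared with Vec over MM.1s, RPMI8226 and KMS18, which asks how these genes differ under a hairpin against the ligand. SSR1 and SSR3, the alpha and gamma subunits of TRAP, fell, and no member rose. Estimates were below 0 for 41 of the 48 genes, with a median of -0.22. Differences are in log2(FPKM + 1), a scale on which low genes appear to change less than they do. Over all 11316 genes tested, 45.6% of estimates were below 0 and the median was 0.02. The 2 calls compare with 0.566% of all genes called lower and 0.0619% called higher. At an unadjusted p under 0.05, 21 members were lower and 2 higher, against 6.55% and 6.29% of all genes.

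**Figure D1:**
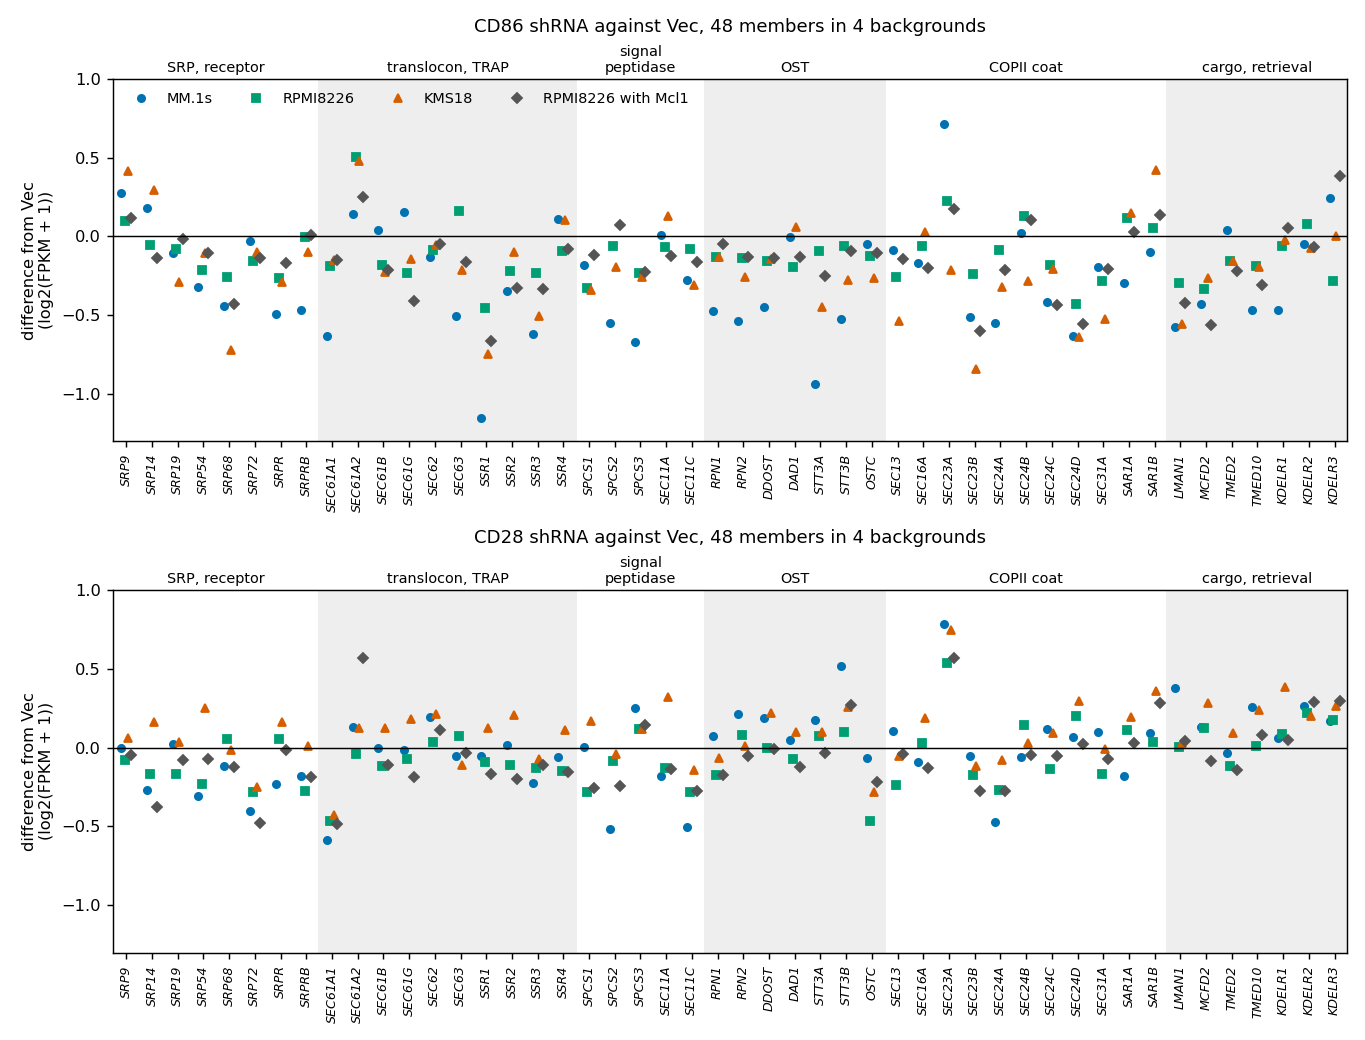
Difference from Vec in log2(FPKM + 1) for each of the 48 genes (horizontal axis, ordered by role) under CD86 shRNA (top) and CD28 shRNA (bottom), with 1 point for each of the 4 backgrounds. Under CD86 shRNA most points lie below 0 and those of SSR1 reach -1.15 in MM.1s, while under CD28 shRNA SEC61A1 lies below 0 and SEC23A above 0 in all 4 backgrounds.

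SSR1, which with the other TRAP subunits sits beside the pore and helps a subset of signal peptides to open it, fell most. In the order Vec, Gapdh shRNA, CD28 shRNA and CD86 shRNA, SSR1 stood at 39.5, 39.3, 38.0 and 17.2 FPKM in MM.1s, at 86.4, 83.1, 80.8 and 62.9 in RPMI8226, at 55.4, 48.4, 60.5 and 32.6 for KMS18, and at 73.5, 67.8, 65.4 and 46.0 for the Mcl1 line. The CD86 shRNA library was the lowest in each background, and the ranges of the CD86 and Vec libraries overlapped across lines. The fall was -0.78 (SE 0.14, adjusted p = 0.0343 by limma), to 0.581 of Vec, with -1.15, -0.45 and -0.75 in MM.1s, RPMI8226 and KMS18. The Mcl1 line, which did not enter this fit, was at -0.66.

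SSR3 fell by 0.45 (SE 0.08, adjusted p = 0.04), to 0.731 of Vec. Its levels in the same order were 189, 190, 162 and 123 FPKM in MM.1s, 234, 248, 214 and 198 in RPMI8226, 167, 189, 159 and 117 for KMS18, and 196, 201, 181 and 155 for the Mcl1 line. Again the CD86 shRNA library was the lowest of 4 in each background. Both calls were lost when any 1 of the 3 lines was left out (adjusted p 0.0733 to 0.358 for SSR1 and 0.0733 to 0.428 for SSR3), with every gene with reads in the fit (0.108 and 0.11), and with only the CD86 shRNA and Vec libraries (0.13 and 0.179). Of the plasma cell markers SDC1, a surface proteoglycan (-1.11, adjusted p = 0.0106), and MZB1, an ER protein of antibody-making cells (-0.47, adjusted p = 0.0171), fell in the same comparison. The other markers had estimates below 0 too and did not pass. These were SLAMF7 (-0.58), IRF4 (-0.44), TNFRSF17 (-0.42), PRDM1 (-0.31), XBP1 (-0.17), CD38 (-0.17) and JCHAIN, which joins antibody units (-0.01, adjusted p = 0.984). The part of the markers in the members' falls was not tested. The other TRAP subunits, SSR2 (the beta subunit) and SSR4 (the delta subunit), did not pass.

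**Figure D2:**
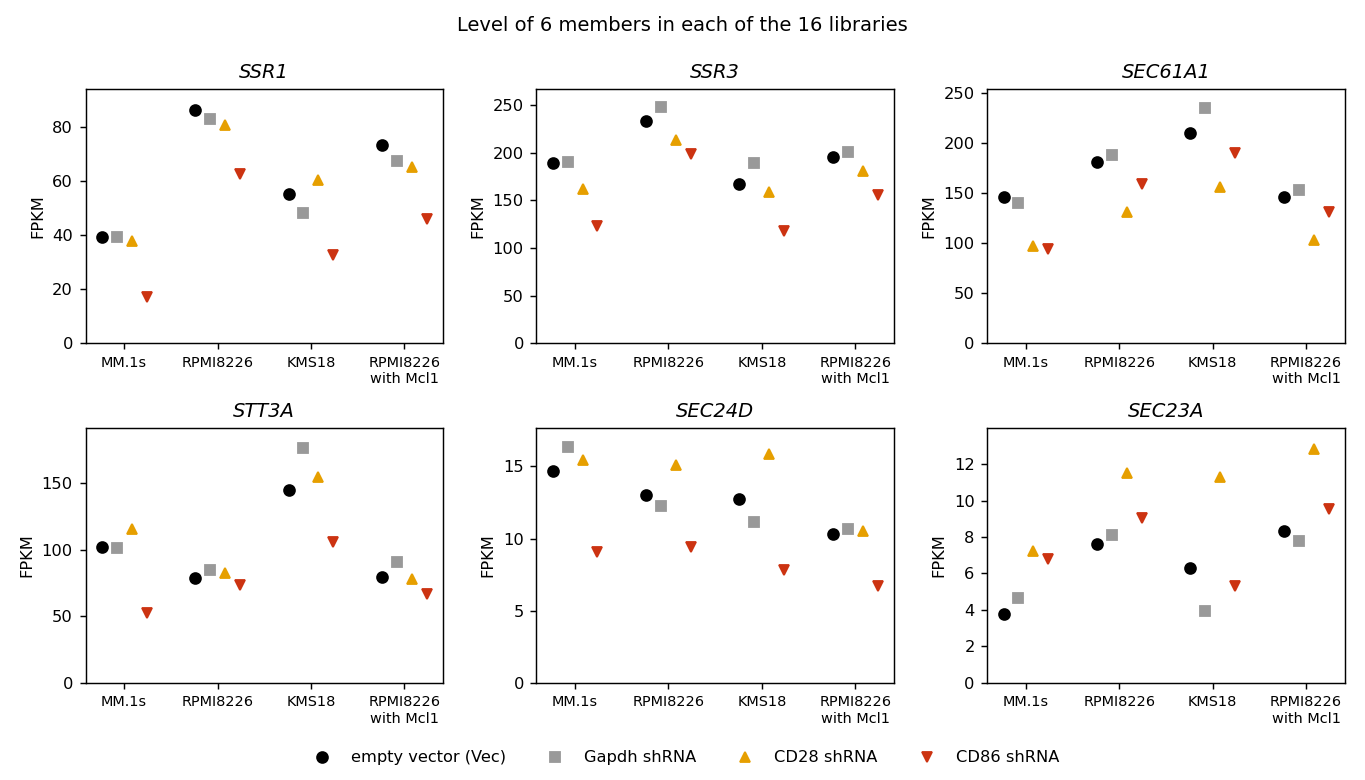
Level (FPKM, vertical axis from 0) of SSR1, SSR3, SEC61A1, STT3A, SEC24D and SEC23A in each of the 16 libraries, grouped by background, with 1 symbol per shRNA. SSR1, SSR3, STT3A and SEC24D are lowest in the CD86 shRNA library of each background, and SEC23A is highest in the CD28 shRNA library of each.

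Letters in the 3′ untranslated regions (UTRs) were examined because a hairpin can act on transcripts other than its target through a short match. The 15606 heptamers in the 3′ UTRs of 10181 genes (GENCODE release 29, GRCh38) were ranked by a z score of their carriers' differences, adjusted for UTR length, which weighs the number of carriers too. The longest annotated 3′ UTR was used for each gene, and the transcripts expressed here may lack part of it. TCAAGCA and TTCAAGC had the lowest scores under CD86 shRNA, and their carriers had mean differences of -0.07 and -0.06 against 0.02 for the other genes in each case. For CD28 shRNA these were CTGTGTT and TGTGTTA, with carrier means of -0.08 each. The heptamers were ranked on the same values, so this is a description with no test. They are called CD86 and CD28 heptamers after the comparison that ranked them, as the hairpin sequences are not known. Of the 48 genes, 11 carried a CD86 heptamer, and 20.7% of all genes did. A CD28 heptamer was carried by 16 of the 48 and by 31.6% of all genes. Capitals mark the heptamer matches in the 4 sites of SSR1, whose 3′ UTR of 8721 bases is long, and in the site of SEC61A1, described below.
SSR1 site 1: atggtttgTTCAAGCAcacttaat
SSR1 site 2: ctcttgggTTCAAGCAgttctccc
SSR1 site 3: attgcattTTCAAGCtctaaagg
SSR1 site 4: ggagaacaTCAAGCAtctgctct
SEC61A1 site: tcacccagCTGTGTTcagaattt
The SSR1 sites are chr6:7287786-7287809, chr6:7286818-7286841, chr6:7285816-7285838 and chr6:7283988-7284010 on the minus strand, and the SEC61A1 site is chr3:128070584-128070606 on the plus strand. The 37 members without a CD86 heptamer had a median difference of -0.21 with 32 below 0, and the 11 carriers had a median of -0.28 with 9 below 0. SSR3 carried none. The part of these matches in the falls was not tested.

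By role, all 7 OST subunits and all 7 cargo and retrieval receptors had estimates below 0 under CD86 shRNA (medians -0.25 and -0.18), though none passed the threshold. In OST the difference was largest in MM.1s, where the median was -0.47, against -0.13 in RPMI8226 and in the Mcl1 line and -0.26 in KMS18. STT3A, the catalytic subunit that works beside the translocon, stood at 102 FPKM under Vec and 52.6 under CD86 shRNA in MM.1s, 78.5 and 73.7 in RPMI8226, 145 and 106 for KMS18, and 79.5 and 66.5 for the Mcl1 line. Its estimate was -0.49 (adjusted p = 0.198). The OST median was thus below 0 in all 4 backgrounds, and farthest below in MM.1s. This was not particular to OST, as the median of every role group was below 0 in all 4 backgrounds. It was farthest below in MM.1s for each group but the COPII coat, which was lowest in KMS18 (-0.28, against -0.19 in MM.1s).

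In the COPII coat 9 of 11 estimates were below 0 (median -0.27) and none passed. The lowest were those of SEC24D, a cargo-binding subunit of the inner coat (-0.57, adjusted p = 0.0623), and SEC23B, which activates the GTPase activity of SAR1 (-0.53, adjusted p = 0.0856). SEC24D stood at 14.7 FPKM under Vec and 9.10 under CD86 shRNA in MM.1s, 13.02 and 9.40 in RPMI8226, 12.8 and 7.84 for KMS18, and 10.3 and 6.72 for the Mcl1 line. All 4 CD86 shRNA libraries lay below all 4 Vec libraries for this gene. SEC23A, the other SEC23 gene, had an estimate of 0.24 that did not pass (adjusted p = 0.631).

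Of SRP and its receptor, 6 of 8 estimates were below 0 (median -0.17). SRP68, which binds the SRP RNA together with SRP72, was at -0.47 (adjusted p = 0.0629) and SRPR, the receptor subunit that docks SRP, at -0.35 (adjusted p = 0.104). SRP9, which with SRP14 slows translation while the ribosome is brought to the membrane, had an estimate above 0 (0.26, adjusted p = 0.181). In signal peptidase 4 of 5 estimates were below 0 (median -0.27), with the accessory subunit SPCS3 at -0.39 (adjusted p = 0.157). SPCS3 carried 2 CD86 heptamers.

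When the Mcl1 line was added as a further background, 7 members were lower and none higher, where 1.89% of all genes were lower and 0.599% higher. They were SRP68 (-0.46, adjusted p = 0.00461), SRPR (-0.30, 0.0264), SSR1 (-0.75, 0.00222), SSR3 (-0.42, 0.00332), SEC23B (-0.55, 0.00651), SEC24D (-0.57, 0.00489) and MCFD2, the partner of the cargo lectin LMAN1 (-0.40, 0.0203). RPMI8226 and its Mcl1 derivative are related, so these are not 4 independent lines. The authors' deposited table carries in its name that Gapdh and the Mcl1 line were excluded. In the authors' deposited table, at a false discovery rate under 0.05, 8 of the 48 genes were lower for CD86 shRNA against Vec, against 1.55% of 14975 genes. These were SRP68, SRPR, SSR1 (-0.81, false discovery rate 2.88e-06), SSR3, STT3A, SEC23B, SEC24D (-0.64, 5.88e-05) and LMAN1 in the authors' deposited table. LMAN1 did not pass here (-0.47, SE 0.24, adjusted p = 0.436), and in MM.1s its lowest library was that with Gapdh shRNA (40.8 FPKM, against 78.2 under Vec, 102 under CD28 shRNA and 52.1 under CD86 shRNA).

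Under CD28 shRNA the estimates against Vec lay on both sides of 0, with 23 of 48 below it and a median of 0.00. Over all genes 50.6% were below 0. SEC61A1, which forms the pore through which nascent chains pass, was the only member past the threshold. It compares with 2.11% of all genes called lower and 0.716% called higher. Both comparisons use the same 3 Vec libraries, and the values of each are given side by side here without a measure of overlap.

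In the order Vec, Gapdh shRNA, CD28 shRNA and CD86 shRNA, SEC61A1 stood at 147, 141, 97.6 and 94.3 FPKM in MM.1s, at 181, 189, 131 and 159 in RPMI8226, at 211, 235, 157 and 190 for KMS18, and at 146, 153, 104 and 132 for the Mcl1 line. The CD28 shRNA library was below Vec and Gapdh shRNA in each background, and the lowest of 4 in all but MM.1s, where CD86 shRNA was slightly lower. The fall was -0.49 (SE 0.09, adjusted p = 0.0186), to 0.711 of Vec, with -0.58, -0.46 and -0.43 in MM.1s, RPMI8226 and KMS18, and the Mcl1 line outside the fit was at -0.49. The call was lost without any 1 of the lines (adjusted p 0.06 to 0.142) and with every gene with reads in the fit (0.0519). SEC61A1 carried 1 of the CD28 heptamers, as 31.6% of all genes did, and the part of this match in the fall was not tested.

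SEC23A had the highest estimate under CD28 shRNA (0.69, SE 0.19, adjusted p = 0.0788) and did not pass. Its levels under Vec, Gapdh shRNA, CD28 shRNA and CD86 shRNA were 3.77, 4.66, 7.22 and 6.81 FPKM in MM.1s, 7.62, 8.09, 11.5 and 9.07 in RPMI8226, 6.30, 3.93, 11.3 and 5.30 for KMS18, and 8.33, 7.77, 12.9 and 9.55 for the Mcl1 line. The CD28 shRNA library was the highest in each background. With the Mcl1 line added, 4 members were lower and 2 higher, where 5.95% of all genes were lower and 3.18% higher. Of the members SEC61A1, SRP72 (-0.35, adjusted p = 0.00307), SEC11C, a catalytic subunit of signal peptidase (-0.30, 0.0113), and OSTC, a subunit of the STT3A form of OST (-0.26, 0.0327), were lower, and SEC23A (0.66, 0.0126) and the retrieval receptor KDELR2 (0.24, 0.0177) were higher. In the authors' deposited table SEC61A1 was lower (-0.48, false discovery rate 0.00257) and SEC23A higher (0.79, 0.00354), against 2.7% of genes lower and 2.68% higher there.

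By role, all 8 estimates of SRP and its receptor were below 0 under CD28 shRNA, with a median of only -0.06, and 6 of 7 for cargo and retrieval receptors were above 0 (median 0.18). The sign of the median over all members differed between backgrounds: 0.00 in MM.1s, -0.07 in RPMI8226, 0.12 for KMS18, and -0.08 for the Mcl1 line. Under CD86 shRNA it was -0.31, -0.15, -0.20 and -0.13 in the same order.

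**Figure D3:**
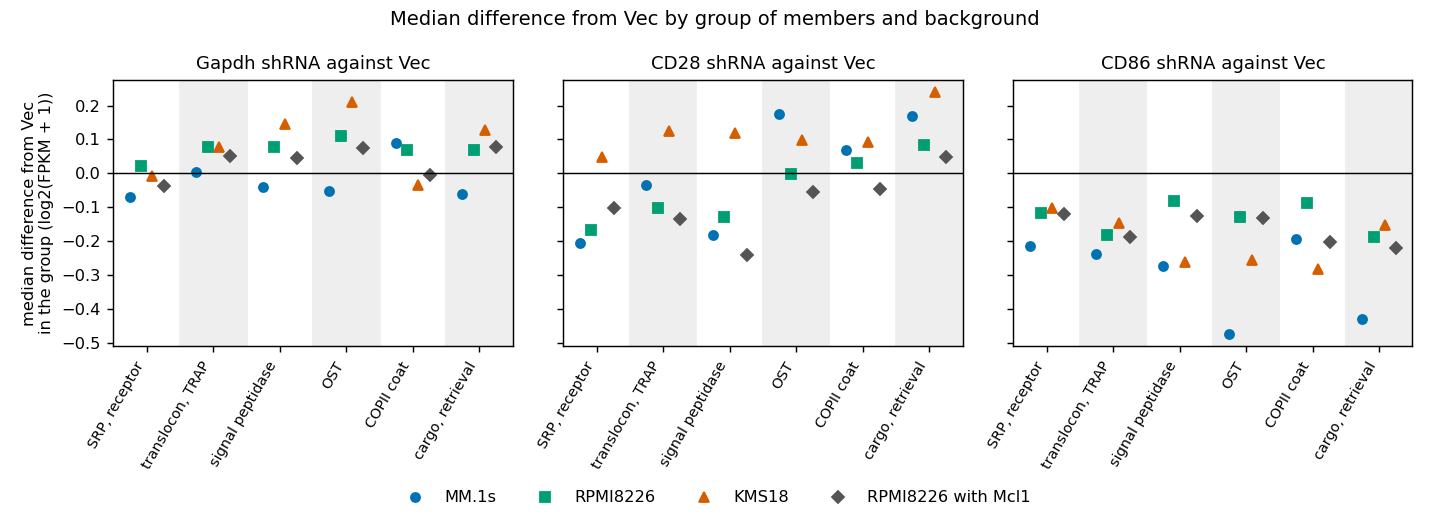
Median difference from Vec in log2(FPKM + 1) within each of the 6 role groups (horizontal axis) for Gapdh, CD28 and CD86 shRNA (panels), with 1 point per background. The points for CD86 shRNA all lie below 0, with OST in MM.1s at -0.47, while those for Gapdh and CD28 shRNA lie on both sides of 0.

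Gapdh shRNA, the hairpin control, gave 0 calls by limma among the members and 0% of all genes were called higher, with 0% called lower. GAPDH itself was not called in this fit (-1.89, SE 0.37, adjusted p = 0.999853), though it was lower in every background, so 0 calls do not show that the hairpin left other genes unchanged. At an unadjusted p under 0.05, 1 member (SRPR, 0.22) was higher and 0 were lower, against 1.22% and 2.33% of all genes. By limma voom on the recovered reads 0 members were called too. The median over the members was 0.04, with 13 of 48 estimates below 0, against a median of -0.01 and 53% below 0 over all genes. All 7 OST estimates were above 0. The members most different from Vec by estimate were KDELR3 (0.24) and SRPR.

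The CD86 and CD28 shRNAs were then compared with each other, in which both arms carry a hairpin against this receptor and ligand pair. With CD86 shRNA 13 members were lower and 0 higher, against 4.1% of all genes lower and 5.41% higher. Estimates were below 0 for 39 of 48 (median -0.20), against 45.7% of all genes (median 0.03). The 13 came from every role group. In OST 4 of 7 were lower: both catalytic subunits STT3A (-0.61, adjusted p = 0.0315) and STT3B, which modifies sites that STT3A skips (-0.58, 0.0252), the ribophorin RPN2 (-0.41, 0.0299) and the scaffold subunit DDOST (-0.38, 0.0291).

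STT3B stood at 97.8, 90.7, 140 and 67.6 FPKM in MM.1s (Vec, Gapdh shRNA, CD28 shRNA and CD86 shRNA), at 94.2, 106, 101 and 90.1 in RPMI8226, at 103, 115, 123 and 84.8 for KMS18, and at 82.7, 88.3, 100 and 77.7 for the Mcl1 line. It was above Vec with CD28 shRNA and below Vec with CD86 shRNA in each background. In neither comparison with Vec did it pass (0.29, adjusted p = 0.258 for CD28 shRNA, and -0.29, 0.399 for CD86 shRNA).

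Of the coat, SEC24D was lower (-0.76, SE 0.12, adjusted p = 0.00448), and all 11 COPII estimates were below 0 (median -0.23). All 7 cargo and retrieval estimates were below 0 (median -0.36), with 3 called: MCFD2 (-0.52, adjusted p = 0.0127), TMED10, a p24 cargo receptor (-0.45, 0.0217), and KDELR1 (-0.36, 0.0459). SSR1 (-0.78, 0.00869), SSR3 (-0.31, 0.0424), SPCS3 (-0.55, 0.012), SRP68 (-0.45, 0.0203) and SRPR (-0.34, 0.0288) made up the 13. SEC61A1 did not pass (0.17, adjusted p = 0.262).

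MCFD2, which helps LMAN1 to take coagulation factors out of the ER, stood at 14.1, 10.8, 15.6 and 10.2 FPKM in MM.1s, in the order given above, at 24.2, 23.1, 26.5 and 19.0 in RPMI8226, at 9.70, 10.4, 12.003 and 7.93 for KMS18, and at 24.9, 19.99, 23.5 and 16.6 for the Mcl1 line. The CD86 shRNA library was the lowest in each background. TMED10 stood at 39.1, 36.2, 47.0 and 28.03 FPKM in MM.1s, at 72.6, 70.5, 73.2 and 63.6 in RPMI8226, at 44.1, 50.3, 52.3 and 38.4 for KMS18, and at 65.6, 66.0, 69.5 and 52.8 for the Mcl1 line. It was highest with CD28 shRNA and lowest with CD86 shRNA in all 4.

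Without MM.1s 1 of these members was past the threshold, without RPMI8226 7 and without KMS18 0, and 0 in a fit of these shRNAs alone. Of all genes 0.667%, 2.31%, 0.382% and 0.0176% were lower in these fits, in the same order. With the Mcl1 line added 21 members were lower and 2 higher (SRP9, 0.24, and SRP72, 0.25), where 8.05% of all genes were lower and 10.6% higher. The authors' deposited table had 16 members lower, against 5.9% of genes. Over all genes 612 were higher and 464 lower, and after rescaling by median-of-ratios 486 and 579, while the members' calls stayed lower. Among the members that carried none of the heptamers ranked above 7 of 26 were called, and among the 22 carriers 6. These heptamers were picked from the same data, and the shares called among all carriers and all other genes were not counted. The part of the matches in the calls was not tested.

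The rank of the 4 shRNAs within each background uses no model, and was counted after the values were seen. CD86 shRNA gave the lowest level of 4 in every background for 16 of the 48 genes (33.3%), against 3.96% of 11349 genes, and against 6.22% of the 5450 genes that averaged 10 FPKM or more. The 16 were SRP68, SRPR, SEC62, SSR1, SSR2, SSR3, RPN2, DDOST, STT3A, STT3B, SEC13, SEC23B, SEC24D, SEC31A, MCFD2 and TMED10, and after rescaling by median-of-ratios all 16 were among 18. CD86 shRNA was the highest of 4 in every background for 1 member, SRP9 (4.33% of all genes). CD28 shRNA was the highest in every background for 5 members, SEC62, SPCS3, SEC23A, TMED10 and KDELR2 (10.4%, against 4.19% of all genes), and the lowest for 2, SRP72 and OSTC (4.17%, against 6.55%). Gapdh shRNA was the highest for 4, SRPR, SEC63, SSR3 and SPCS1 (8.33%, against 0.67% of all genes), and Vec for none (0.872% of all genes).

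More members were called between lines than between shRNAs. Against MM.1s, RPMI8226 had 20 members higher and 11 lower, where 33.2% of all genes were higher and 35.9% lower. KMS18 had 20 higher and 14 lower than MM.1s (30.8% and 34.5% of all genes), and 18 higher and 15 lower than RPMI8226 (35.2% and 35.1%). These counts of 31 to 34 of 48 lie near the share of all genes that differ between lines. In OST all calls against MM.1s went one way, as 4 of 7 subunits were higher in RPMI8226 and 6 of 7 in KMS18 than in MM.1s, with none lower. In the COPII coat calls went both ways, with 6 of 11 lower and 3 higher in RPMI8226 than in MM.1s, and 5 lower and 2 higher in KMS18. The 3 comparisons share libraries. The 4 libraries of a line differ in shRNA and are its only replicates, and they are not separate derivations of the line.

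SSR4, the delta subunit of TRAP, had the largest difference of the members between KMS18 and MM.1s. It averaged 511 ± 18.3 FPKM (SD, n = 4 libraries) in KMS18, 214 ± 14.5 in RPMI8226, 185 ± 8.75 in the Mcl1 line and 108 ± 6.20 in MM.1s. No value of 1 parental line reached that of another, as MM.1s spanned 100 to 113 FPKM, RPMI8226 198 to 231 and KMS18 484 to 523. KMS18 was 4.71-fold above MM.1s (2.24, SE 0.06, adjusted p = 2.15e-10) and 2.38-fold above RPMI8226 (1.25, 1.04e-08). The order was KMS18, RPMI8226, MM.1s for SSR4, but RPMI8226 (78.3 ± 10.52), KMS18 (49.3 ± 12.1), MM.1s (33.5 ± 10.9) for SSR1, so subunits of the same complex did not follow one order.

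The KDEL receptors, which bind the retrieval signal of escaped ER proteins, had a similar make-up in MM.1s and KMS18 and another in RPMI8226 and its Mcl1 derivative. KDELR1 averaged 181 ± 27.9 FPKM in MM.1s, 70.4 ± 3.205 in RPMI8226 and 128 ± 18.1 in KMS18, and KDELR2 42.4 ± 4.36, 76.7 ± 5.22 and 31.6 ± 2.77. KDELR1 thus made up 80.7 ± 2.02% of the 3 receptors' FPKM in MM.1s and 80.1 ± 0.881% in KMS18, but 46.5 ± 1.59% in RPMI8226 and 50.8 ± 2.57% in the Mcl1 line. KDELR1 was lower in RPMI8226 than in MM.1s (-1.34, adjusted p = 1.17e-07) and KDELR2 higher (0.84, 5.75e-07). KMS18 had less KDELR2 than RPMI8226 (-1.26, 1.59e-08) and more KDELR1 (0.85, 4.37e-06).

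KDELR3 averaged 4.27 ± 0.824 FPKM in RPMI8226 and 3.76 ± 0.547 in the Mcl1 line, against 0.616 ± 0.226 in MM.1s. In KMS18 it was listed at 0 in 3 libraries and at 0.201 FPKM, from 2 reads, in the CD28 shRNA library. Its adjusted p was 7.26e-07 for RPMI8226 against MM.1s and 4.3e-08 for KMS18 against RPMI8226, and no fold is given for so low a level.

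**Figure D4:**
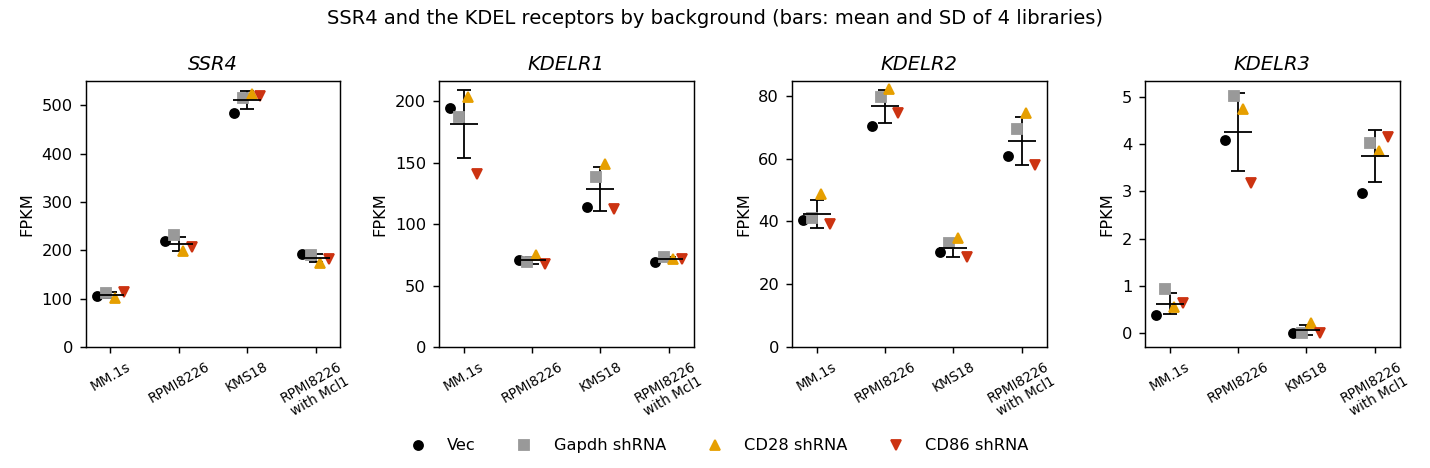
Level (FPKM, vertical axis) of SSR4, KDELR1, KDELR2 and KDELR3 by background, with 1 symbol per library and bars for the mean and SD of the 4 libraries of a background. SSR4 is highest in KMS18 (511 FPKM), KDELR1 in MM.1s (181 FPKM) and KDELR2 and KDELR3 in RPMI8226 (76.7 and 4.27 FPKM).

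DDOST had the highest mean of the OST subunits in MM.1s and RPMI8226, and RPN2 in KMS18. DDOST stood at 150, 138, 171 and 110 FPKM in MM.1s (Vec, Gapdh shRNA, CD28 shRNA and CD86 shRNA), at 292, 312, 292 and 262 in RPMI8226, and at 192, 222, 223 and 174 in KMS18. RPMI8226 lay above the other lines in every library, and was higher than MM.1s by 1.03 (adjusted p = 6.15e-07). STT3A made up 48.1 ± 4.39% of the FPKM of both catalytic subunits in MM.1s, 45.0 ± 0.386% in RPMI8226, 57.6 ± 2.38% for KMS18, and 47.4 ± 3.08% for the Mcl1 line. STT3A was higher in KMS18 than in MM.1s (0.68, adjusted p = 0.000759) and than in RPMI8226 (0.83, 0.000143). RPN2 averaged 133 ± 27.7 FPKM in MM.1s, 214 ± 18.8 in RPMI8226 and 232 ± 25.96 in KMS18, and was higher than in MM.1s in both (0.70, adjusted p = 2.65e-05, and 0.82, 9.16e-06).

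COPII genes with their highest mean in MM.1s were the cargo adaptors SEC24B, SEC24C and SEC24D, SEC31A, and SAR1A and SAR1B, genes of the GTPase that starts the coat. For SEC24D the means lay close (13.9 FPKM in MM.1s, 12.4 in RPMI8226 and 11.9 in KMS18). SEC24C averaged 53.6 ± 8.62 FPKM in MM.1s, 28.99 ± 1.61 in RPMI8226 and 27.2 ± 4.09 in KMS18 (-0.85, adjusted p = 3.24e-05, and -0.95, 1.53e-05, against MM.1s). SAR1A averaged 41.3 ± 4.002, 22.6 ± 0.932 and 21.9 ± 1.66 FPKM (-0.84, 9.82e-06, and -0.88, 7.2e-06). Both genes were thus lower than in MM.1s in RPMI8226 and in KMS18. SEC24A was lower in RPMI8226 (7.05 ± 1.31 FPKM) than in MM.1s (11.3 ± 2.24) and KMS18 (12.8 ± 1.52). SEC24C made up 61.4 ± 1.995% of the FPKM of the 4 SEC24 genes in MM.1s and 48.5 ± 4.30% in KMS18, while SEC24A made up 12.98 ± 1.92% and 23.0 ± 3.08%. For SEC24A and SEC24C the values of the libraries of these lines did not overlap in the comparisons named, except SEC24A in MM.1s and KMS18.

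Of SRP and its receptor, SRPRB, the membrane-bound receptor subunit, averaged 41.0 ± 5.48 FPKM in MM.1s, 61.3 ± 5.9995 in RPMI8226 and 90.1 ± 7.10 in KMS18 (1.12 above MM.1s in KMS18, adjusted p = 1.14e-06). SRP54, the GTPase that binds the signal peptide, averaged 29.4 ± 3.72, 41.8 ± 3.24 and 22.3 ± 2.88 FPKM (-0.88 in KMS18 against RPMI8226, adjusted p = 8.73e-06). SRP14 averaged 169 ± 22.1 FPKM in MM.1s and 162 ± 16.5 in KMS18, but 101 ± 5.28 in RPMI8226. No single line was highest for these 3 genes. In the translocon SEC63, which recruits the chaperone BiP to the pore, averaged 44.1 ± 3.75 FPKM in KMS18, 22.8 ± 2.26 in RPMI8226 and 26.3 ± 4.43 in MM.1s (0.92 above RPMI8226 and 0.73 above MM.1s, adjusted p = 7.68e-06 and 6.22e-05), while its partner SEC62 was lower in KMS18 than in MM.1s (-0.67, 3.81e-06). In signal peptidase SPCS3 averaged 84.7 ± 9.21 FPKM in KMS18, 65.3 ± 16.8 in MM.1s and 44.1 ± 5.19 in RPMI8226, and SEC11A, the other catalytic subunit, 135 ± 12.5, 76.9 ± 8.56 and 93.5 ± 4.33.

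RPMI8226 overexpressing Mcl1 was compared with RPMI8226 over the 4 arms. Of the members 27 were lower and 0 higher, while 14.9% of the 11024 genes tested were lower and 19.5% higher. Estimates were below 0 for 41 of 48 genes (median -0.16), against 46% of all genes (median 0.03). Each of the 27 was lower in all 4 arms, though a call made on these same differences favours a shared sign. The members' median was -0.17 under Vec, -0.21 under Gapdh shRNA, -0.16 under CD28 shRNA and -0.19 under CD86 shRNA. The 4 libraries come from a single derived line, so overexpression of Mcl1 and other features of that line cannot be told apart.

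**Figure D5:**
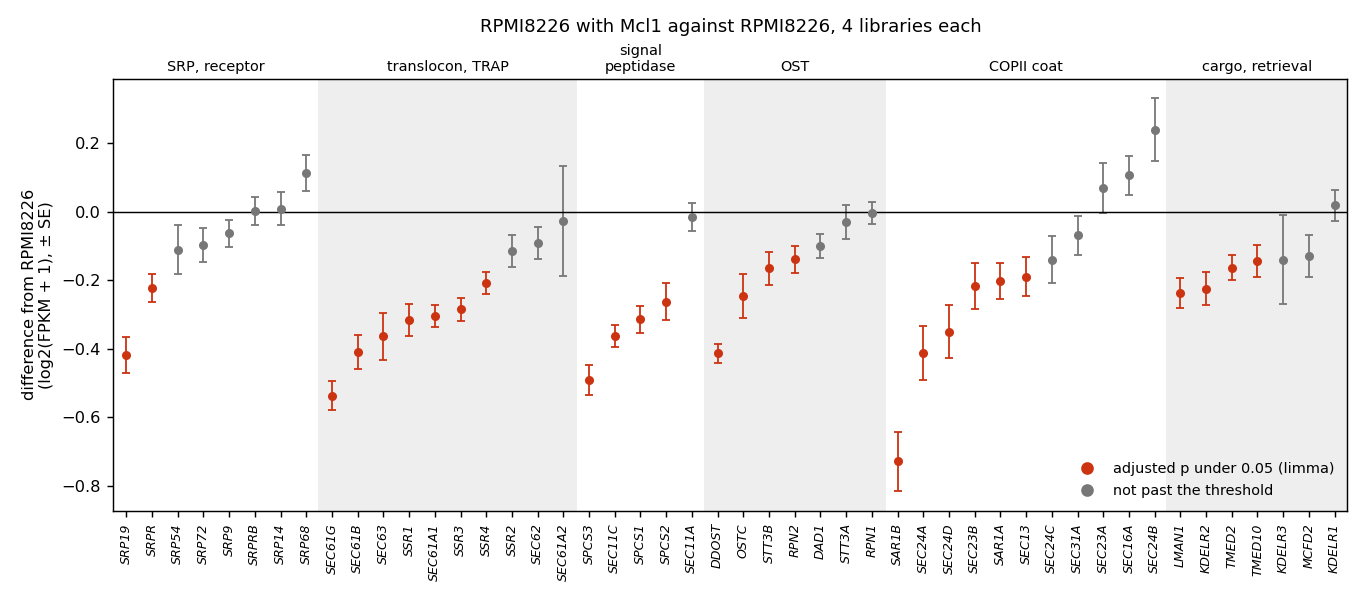
Difference of RPMI8226 with Mcl1 from RPMI8226 in log2(FPKM + 1) for the 48 genes, by role and sorted within it, with bars for the SE from 4 pairs of libraries. The 27 genes in red, past the adjusted threshold, all lie below 0, from -0.14 to -0.73 (SAR1B).

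The translocon and TRAP had 7 of 10 members lower and all 10 estimates below 0, and signal peptidase had 4 of 5 lower. SEC61G was lower by -0.54 (adjusted p = 0.000139), SEC61B by -0.41 (0.000909) and SEC61A1 by -0.30 (0.00046), so the 3 subunits of the pore were lower together. SEC61G stood at 374, 428, 356 and 319 FPKM in RPMI8226 (Vec, Gapdh shRNA, CD28 shRNA and CD86 shRNA) and at 283, 273, 249 and 213 in the Mcl1 line, and the values of both lines did not overlap. In signal peptidase SPCS3 (-0.49, adjusted p = 0.000263), SEC11C (-0.36, 0.000236), SPCS1 (-0.31, 0.00111) and SPCS2 (-0.26, 0.00922) were lower, and SEC11A was not called (-0.02, 0.793).

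In OST 4 of 7 were lower and all 7 estimates were below 0. DDOST had the smallest adjusted p of the members (-0.41, SE 0.03, 7.34e-05), and stood at 220, 230, 218 and 200 FPKM in the Mcl1 line against 292, 312, 292 and 262 in RPMI8226, without overlap. OSTC (-0.25), STT3B (-0.17) and RPN2 (-0.14) were the others, and STT3A (-0.03, adjusted p = 0.678) was not called. In the COPII coat 6 of 11 were lower. SAR1B, the second SAR1 gene, known for the export of lipoprotein particles, had the largest difference (-0.73, SE 0.09, adjusted p = 0.000795), at 4.24, 4.94, 5.38 and 4.75 FPKM against 8.09, 9.80, 8.31 and 8.44 in RPMI8226. SAR1B made up 27.7 ± 2.06% of the FPKM of both SAR1 genes in RPMI8226 and 19.8 ± 1.44% in the Mcl1 line. SEC24B had the highest estimate (0.24, adjusted p = 0.0807). SRP19 (-0.42, 0.00114) and SRPR (-0.22, 0.00586) were lower among the 8 genes of SRP and its receptor, as were LMAN1, KDELR2, TMED2 and TMED10 among the 7 cargo and retrieval receptors. Without the term for shRNA 10 members were called, where 9.66% of all genes were lower and 12.6% higher.

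Whether the Mcl1 line responded differently to the hairpins was tested as an interaction over the 16 libraries. By limma 0 members passed for either shRNA, 0 had an unadjusted p under 0.05, and limma voom called 0. Of all 11349 genes 0% were higher and 0.00881% lower for CD28 shRNA, and 0% either way for CD86 shRNA. The medians over the members were -0.09 for CD28 shRNA (38 of 48 below 0) and 0.04 for CD86 shRNA (18 of 48 below 0). As that line had 1 library per shRNA, the spread was taken from the rest, and differences that did not pass are not shown to be absent.

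The rest of the route was described with 109 further genes in 8 lists, of which 106 were tested. Under CD86 shRNA against Vec, 84 of the 106 estimates were below 0 (median -0.15), against 45.6% of all genes, and 1 gene fell, GFPT1 (-0.74, adjusted p = 0.0285), the rate-limiting enzyme of the pathway that makes the sugar donor for N-glycans. Under CD28 shRNA 45 were below 0 (median 0.05), against 50.6% of all genes, and 1 fell, TRAM2 (-0.67, 0.0171), a membrane protein of the translocon. Between both shRNAs 16 were lower with CD86 shRNA and 0 higher (79 below 0, median -0.18), where 4.1% of all genes were lower, 5.41% higher and 45.7% below 0. These included GFPT1 (-1.07, 0.00119), DPAGT1, ALG3 and ALG8 of 26 tested genes of lipid-linked oligosaccharide synthesis, which builds the sugar chain that OST transfers, and MAN1B1 (-0.47, 0.0139) and UGGT1 (-0.47, 0.0471) of 6 genes of glycan trimming. In the COPI coat, which carries material back to the ER, 5 of 14 were lower, among them ARCN1 (-0.45, 0.0125) and COPG1 (-0.43, 0.0241).

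Of the transcription factors of the unfolded protein response, XBP1 was at -0.17 under each of the CD86 and CD28 shRNAs against Vec (adjusted p = 0.383 and 0.254), and between both shRNAs its adjusted p was 0.989. ATF6 was at -0.42 under CD86 shRNA (0.205) and -0.12 under CD28 shRNA (0.649). CREB3L2, an ER-bound factor that activates secretory genes, was lower with CD86 than with CD28 shRNA (-0.65, 0.017), and did not pass against Vec (-0.42, 0.233). The 8 members with the unfolded protein response core in their promoter window had a median of -0.08 under CD86 shRNA, with 1 called (SSR3) and 6 below 0. All 48 members had a median of -0.22 with 41 below 0, and of all genes 0.566% were called lower and 45.6% were below 0. The part of the core in these differences was not tested. In the Mcl1 line, of 104 pathway genes tested 13 were higher and 24 lower (median -0.08), against 19.5% and 14.9% of all genes. Among them were PREB, which loads SAR1 with GTP (-0.48, 0.000141), TMED9 (-0.65, 5.07e-05) and ERN1, the sensor IRE1 (-0.65, 0.00142), lower, and DDIT3, a stress factor (0.74, 0.00186), higher.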

How the data were processed

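The authors deposited 1 table with FPKM for 23459 genes in 16 libraries, with exon lengths, and with their own log2 fold changes, p-values and false discovery rates, given here as the authors' deposited table. Per the labels' protocols, libraries followed the Illumina TruSeq mRNA method. Per the submitters' processing notes, edgeR 3.12.1, R 3.2.2, TopHat2 2.0.13 and Picard were used, with mm9, hg19 and GRCh37 as builds, and no roles are stated. By its name, the table's own comparisons left out Gapdh and the Mcl1 line, and no header lists the libraries in them. Whether counting used strand is not given in the sources used here. Reads of overlapping or near-identical genes may thus be split between them.

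FPKM multiplied by exon length gave whole reads for 100% of values within 0.02 of a read, which set the depth and were used in the voom alternative. Even values prevailed among low reads, so mates of a pair appear to be counted separately. Tests used limma 3.58.1 (eBayes with trend) in R 4.3.3 on log2(FPKM + 1), over all genes whose mean reached 1 FPKM, with Benjamini-Hochberg adjustment over all of them, a threshold of 0.05 and two-sided p. The shRNA comparisons and those between lines used the 12 libraries of KMS18, MM.1s and RPMI8226 with terms for shRNA and line (6 residual degrees of freedom). The Mcl1 comparison used 8 libraries with a term for shRNA (3), and the interaction 16 libraries (6). In the shRNA comparisons the line is the replicate and pairs the libraries: their deviations from each shRNA's mean correlated in all 18 same-line pairs (r 0.87 to 0.952 across genes). Between lines, the replicates are the libraries of a line, each with another shRNA. Nothing in the labels says that cultures were repeated, so p-values reflect the spread among these lines and libraries alone. The code of the fit was also run on simulated data with known changes, and no result here rests on that run. Promoter windows came from RefSeq and 3′ UTRs from GENCODE, both on GRCh38. 6 members had no promoter window.

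The members and gene lists were chosen with earlier results of these data known. All 48 members could be named. Of the other pathway lists, the rule named up to 4 genes per list and comparison past the threshold with the largest difference, and XBP1, ATF6 and CREB3L2. Alternatives were another pseudocount (0.1 FPKM), other filters on low values, median-of-ratios scaling, voom, each line or shRNA left out, no paired term, only both shRNAs compared, the Mcl1 line added, and the mean of Vec and Gapdh shRNA as control. Figures were drawn with matplotlib 3.10.9.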

Additional observations from a re-analysis of the deposited data

Results flagged for a closer look

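In each background the 4 libraries of a member were examined for a single library far from the other 3 (a gap that takes up most of the range). Of 192 sets of 4 values, 12 (6.25%) held such a library, and about 1 in 20 would for 4 values of the same kind. The 4 libraries differ in shRNA, so a difference between shRNAs is flagged too, and this rate is no measure of chance here. The CD86 shRNA library of MM.1s was the one that stood apart for SRP9 (111.4 FPKM, above the others at 90.8 to 91.8), SSR1 (17.18, below 38.0 to 39.5), SSR2 (57.1, below 71.2 to 73.6) and SEC23B (20.37, below 28.4 to 29.9). The CD86 shRNA library of KMS18 was low for SRP19 (28.62, below 34.9 to 36.2) and SEC13 (24.24, below 34.2 to 35.6), and that of the Mcl1 line for SEC24D (6.718, below 10.3 to 10.7). The CD28 shRNA library was low for SRP72 in MM.1s (41.72, below 53.7 to 55.5) and for SRPRB in the Mcl1 line (55.2, below 62.8 to 63.7), and the KDELR3 value of KMS18 (0.2013) was the only one above 0 there. The Vec library was high for SRP54 in MM.1s (34.95, above 26.9 to 28.1) and for SEC11A in the Mcl1 line (98.84, above 90.05 to 90.6). Of the 12 values, 7 were from CD86 shRNA libraries, and the split over all genes was not counted.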

How the results depend on the processing

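None of the members called in a comparison changed direction under the alternatives run for it, while some that were not called did (22 against Vec with CD28 shRNA and 9 with CD86 shRNA). For CD28 shRNA against Vec the 1 member called became 0 with every gene with reads in the fit, 2 with a minimum of 5 FPKM, 3 by voom (1 higher, 2 lower), 6 with the Mcl1 line added (2 higher, 4 lower), 4 with the mean of Vec and Gapdh shRNA as control (1 higher, 3 lower), 0 without members that carry a heptamer, and 0 to 0 with each line left out. Over all genes 2.11% were lower and 0.716% higher in the main fit, and 0.689% and 0.121% with every gene with reads. These shares were 4.23% and 1.62% with 5 FPKM, 2.87% and 2.38% by voom, and 5.95% and 3.18% with the Mcl1 line. With the joint mean as control they were 3.57% and 1.58%, and 0.258% to 0.904% were lower with a line left out. For CD86 shRNA against Vec the 2 calls became 0 with every gene with reads and with only both shRNAs fitted, 4 with a minimum of 5 FPKM and with median-of-ratios scaling, 6 by voom, 7 with the Mcl1 line added and with the joint control, 1 without heptamer carriers, and 0 to 0 with each line left out. Over all genes 0.566% were lower in the main fit, 0.16% with every gene with reads and 0.0531% with only both shRNAs. The share lower was 1.27% with 5 FPKM, 0.733% with scaling and 1.75% by voom. It was 1.89% with the Mcl1 line, 1.51% with the joint control and 0% to 0.0548% with a line left out. The share higher was 0.0619% in the main fit and at most 0.599% in the others. For CD86 against CD28 shRNA the 13 calls became 6 with every gene with reads, 0 with only both shRNAs fitted, 23 with the Mcl1 line added (2 higher, 21 lower), 7 without heptamer carriers, and 0 to 7 with each line left out. Over all genes 4.1% were lower and 5.41% higher in the main fit, and 1.39% and 1.94% with every gene with reads. These shares were 0.0176% and 0.0703% with only both shRNAs, and 8.05% and 10.6% with the Mcl1 line. With a line left out 0.382% to 2.31% were lower and 0.835% to 2.48% higher. Without the paired term (no replicate block for the line) the members' calls in these comparisons became 0, 0 and 0, with 0% of all genes called. Without the term for shRNA the 27 of the Mcl1 comparison became 10, and the share of all genes lower went from 14.9% to 9.66%. Leaving out a line removes samples from the fit, a wider filter adds genes to the adjustment, and the cause of the other changes was not tested. The counts without heptamer carriers come from no new fit and only drop members from the calls of the main fit. The restriction to members without a heptamer was chosen after seeing the data, and the heptamers were ranked on the same differences. SEC61A1, the member called for CD28 shRNA, is a carrier, so its count of 0 follows from the restriction itself. Between lines, 26 of 31 calls for RPMI8226 against MM.1s, 25 of 34 for KMS18 against MM.1s and 26 of 33 for KMS18 against RPMI8226 stayed past the threshold under every alternative that tested the gene. In the Mcl1 comparison 19 to 23 members were lower with each shRNA left out, where 10.8% to 12.6% of all genes were lower. The members' median moved from -0.165 to -0.189 with median-of-ratios scaling. KDELR3, SEC61A2, SEC23A, SEC24B and SEC24A had the fewest reads, from 0 to 138 in their lowest library, and depth limits their values most.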
